A study of Mus musculus with 8 samples.

Results

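Early lymphoid and B lineage genes were examined in the histone mark maps of mouse haematopoietic stem cells (HSCs). The 10 genes were listed by name (Rag1, Rag2, Dntt, Il7r, Ebf1, Pax5, Igll1, Ikzf1, Cd79a and Cd79b), out of 21631 protein-coding genes. Each was studied through the peaks over its gene body and 20 kb on each side. Rag1 and Rag2 lie side by side and shared 1 window, which left 9 windows. The maps were made by CUT&RUN, in which an antibody tethers a nuclease to marked nucleosomes and the DNA released is sequenced. The cells were sorted from bone marrow of C57BL/6 mice aged about 10 months as Lin-cKit+Sca1+CD48-CD150+ cells, and 7500 pooled HSCs from 4 or 5 mice went into each assay. In the knockout, RXRKO, both Rxra and Rxrb, which encode retinoid X receptors, carried deleted alleles (∆/∆), made by the Vav-Cre transgene that acts across blood cells. The control, WT, is labelled as VavCre+ with wild-type receptor genes, whereas the design text describes it as Rxrabfl/fl with no Cre, so a Cre effect cannot be told apart from the deletion. H3K4me1 was mapped in 2 libraries per genotype, and H3K4me3 and H3K27ac in 1 library per genotype each. Whether the H3K4me1 replicates came from separate pools of mice is not given in the sources used here, so their spread may be technical.

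B cell development starts from stem cells that carry no B cell identity. Ikaros, made by Ikzf1, acts in the earliest lymphoid commitment steps, the interleukin 7 receptor (Il7r) carries the growth signal of lymphoid progenitors, and Ebf1 and then Pax5 fix the B cell fate. Rag1 and Rag2 cut, and Dntt extends, the antigen receptor segments, and Igll1, Cd79a and Cd79b build the pre-B and B cell receptors. H3K4me1 marks enhancers and primed DNA, H3K4me3 marks promoters, and H3K27ac marks active promoters and enhancers. In stem cells, lineage genes can carry H3K4me1 before they are used. Retinoid X receptors pair with other nuclear receptors to bind DNA.

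The start sites of the members differed in their sequence, and the sequences are shown because H3K4me3 was called more often at CpG-rich starts. The 250 bases before the start are from RefSeq on GRCm38.p6 (mm10), read 5′ to 3′ on the gene's own strand, with each CpG in capitals. Of the 10 members, 9 had an entry, with 11 starts, and Cd79b is named only. Ikzf1 at its first start (chr11:11685675-11685924, + strand) and Ebf1 at its second (chr11:44619978-44620227, + strand) are followed by Rag1 (chr2:101649533-101649782, - strand), Il7r (chr15:9529877-9530126, - strand) and Cd79a (chr7:24897247-24897496, + strand).
Ikzf1: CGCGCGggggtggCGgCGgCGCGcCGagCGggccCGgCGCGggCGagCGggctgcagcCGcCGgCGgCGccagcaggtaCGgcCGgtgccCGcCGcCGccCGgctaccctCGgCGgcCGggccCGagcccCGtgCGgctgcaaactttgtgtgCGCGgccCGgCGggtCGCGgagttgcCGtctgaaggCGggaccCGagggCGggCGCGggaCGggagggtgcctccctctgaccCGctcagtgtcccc
Ebf1: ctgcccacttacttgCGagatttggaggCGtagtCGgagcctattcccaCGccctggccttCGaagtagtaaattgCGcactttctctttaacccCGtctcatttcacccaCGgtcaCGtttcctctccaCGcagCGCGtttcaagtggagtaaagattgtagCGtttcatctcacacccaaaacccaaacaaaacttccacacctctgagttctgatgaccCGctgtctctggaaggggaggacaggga
Rag1: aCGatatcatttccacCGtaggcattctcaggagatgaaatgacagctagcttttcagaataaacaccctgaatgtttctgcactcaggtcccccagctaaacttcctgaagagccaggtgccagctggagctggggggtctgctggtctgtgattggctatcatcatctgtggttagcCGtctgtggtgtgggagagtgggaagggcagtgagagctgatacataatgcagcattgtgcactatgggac
Il7r: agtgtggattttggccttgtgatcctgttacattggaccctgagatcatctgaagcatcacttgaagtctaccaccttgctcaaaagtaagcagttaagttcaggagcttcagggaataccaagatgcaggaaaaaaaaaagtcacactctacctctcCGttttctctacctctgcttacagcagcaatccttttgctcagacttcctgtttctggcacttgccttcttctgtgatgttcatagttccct
Cd79a: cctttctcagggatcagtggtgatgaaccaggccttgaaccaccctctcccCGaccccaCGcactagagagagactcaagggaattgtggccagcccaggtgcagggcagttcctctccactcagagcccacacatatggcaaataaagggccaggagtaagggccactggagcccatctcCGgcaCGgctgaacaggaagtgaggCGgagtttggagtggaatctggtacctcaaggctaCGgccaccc
The first Ikzf1 start held 44 CpGs, more than 99.3% of 21037 tabulated starts, and the second Ebf1 start held 14. Rag1 and Rag2 held 3 each, Dntt held 2, Cd79a 6, and Il7r and Igll1 1 each, against a median of 10 over all starts. Pax5, with 19 CpGs, had no H3K4me3 within 1 kb, and the second Ikzf1 start, with 1 CpG, had H3K4me3 903 bp away in WT and 897 bp away in RXRKO. Over all starts, H3K4me3 was called in both genotypes within 1 kb of 12.0% of the 4658 starts with at most 2 CpGs and of 97.2% of the 10099 starts with at least 11. The nuclear receptor motif AGGTCA was searched on both strands and was found before 1 of the 11 starts, that of Rag2, and before 12.8% of all starts. The E-box CAGGTG was found before the starts of Rag1, Igll1 and Cd79a, and before 17.0% of all starts. The Ikaros core TGGGAA was found before those of Rag1 and Ebf1 (21.1% of all starts). Neither the palindromic EBF1 motif (0.837% of all starts) nor the PU.1 motif GAGGAAG (10.4%) was found before any of the 11 starts. A match describes letters only, and no occupancy was measured.

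The depth of the libraries is unknown because the deposited lists hold peaks, not reads. They held 147698 to 165128 peaks for H3K4me1, 47835 and 58136 for H3K4me3 in WT and RXRKO, and 74287 and 64849 for H3K27ac. RXRKO H3K4me1 replicate 2 covered the longest stretch in all, 133 Mb, against 110 to 118 Mb in the other H3K4me1 libraries. Of 10 HSC marker genes, 10 had H3K4me3 at their promoters in both genotypes, against 2 of 8 mature B and plasma cell markers in both. It was called at 4 of 5 megakaryocyte, 4 of 8 erythroid, and 3 of 11 granulocyte and monocyte markers in each genotype. For T and NK cell markers the count was 4 of 12 in WT and 6 in RXRKO. Over all genes, 66.6% had H3K4me3 in both genotypes.

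Within 1 kb of the start sites, most members were marked by H3K4me1 and few by H3K4me3. A promoter was counted where a peak overlapped 1 kb on either side of a start. These counts moved with the setting. The shares of all genes given here are for the 1 kb setting, so counts at other settings have no background beside them. Within 2 kb, H3K4me3 was called at 6 members in WT and 7 in RXRKO. At an authors' fold of at least 4, H3K4me1 was called at 3 in each genotype. H3K4me1 was called at 8 of 10 members in all 4 libraries, against 66.7% of all genes, with Dntt and Cd79a the exceptions. H3K4me3 was called at 3 of 10 members (Ebf1, Ikzf1 and Cd79b) in both genotypes, against 66.6% of all genes. No member had H3K4me3 in WT only (0.425% of all genes) or in RXRKO only (1.08%). H3K27ac was called at those same 3 members in both genotypes (56.7% of all genes). It was called in WT only at Rag1, Il7r and Igll1 (4.27% of all genes), and in RXRKO only at no member (1.15%). With 1 library per genotype these H3K27ac calls have no replicate check. The WT peaks at Rag1, Il7r and Igll1 had authors' folds of 3.91, 2.95 and 3.22, so at a fold of at least 4 none of the 3 was called. At that fold H3K27ac was left at Ebf1 in WT alone and at Cd79b in both genotypes. With 500 bp on either side of a start, or an overlap of at least 200 bp, Ebf1 and Igll1 lost their calls, which left 4 members in WT and 2 in RXRKO. With equal numbers of top peaks Il7r had none.

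**Figure D1:**
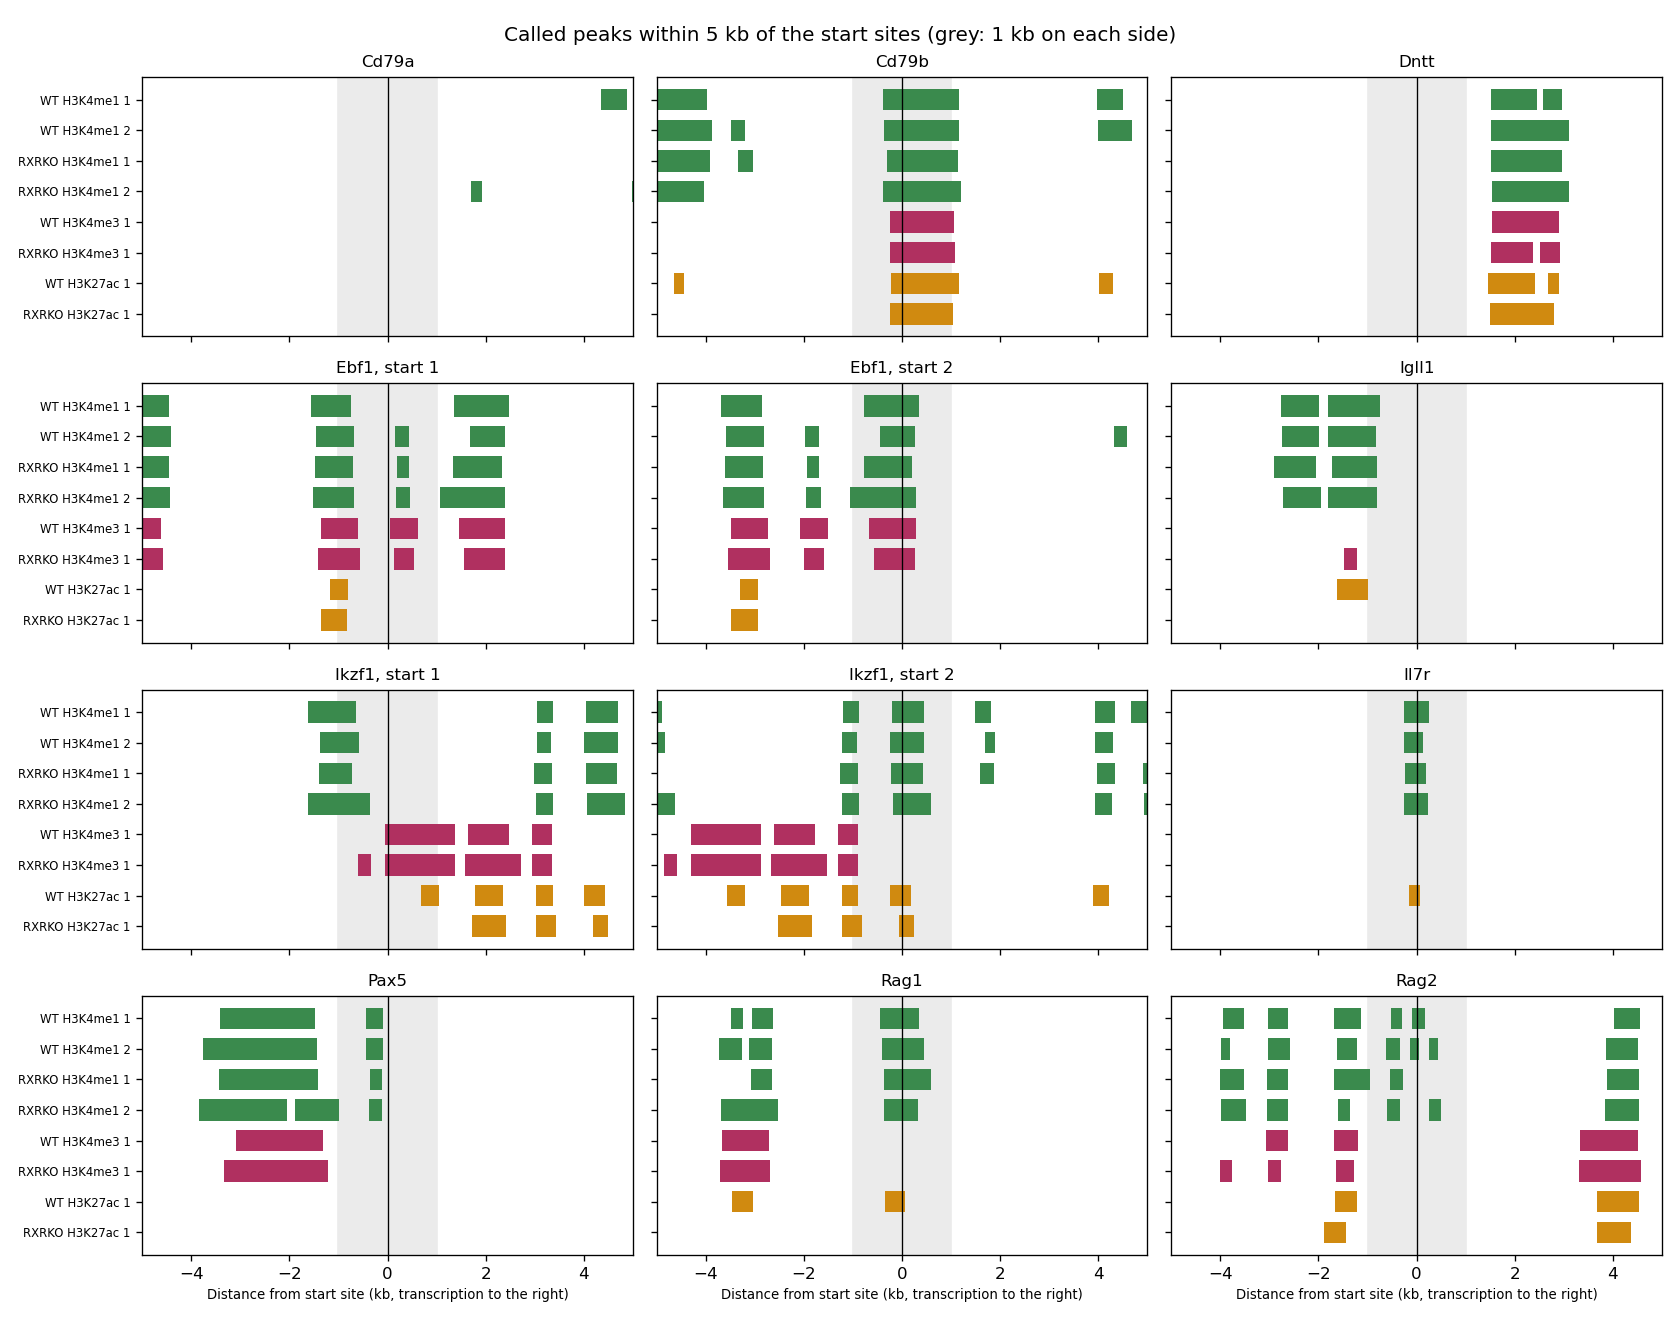
Peaks of the 8 libraries within 5 kb of each annotated start of the 10 genes, with distance in kb on the horizontal axis and 1 row per library (green H3K4me1, red H3K4me3, yellow H3K27ac). H3K4me3 lies within the grey 1 kb band only at Ebf1, Ikzf1 and Cd79b. H3K27ac lies there in WT alone at Rag1, Il7r, Igll1 and the first Ikzf1 start.

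Rag1 (chr2:101638252-101649532) and Rag2 (chr2:101624712-101632528) encode the recombinase. The Rag1 start, chr2:101649532, was spanned by an H3K4me1 peak in each library, with an authors' fold over local background of 9.22 and 8.27 in WT and 7.17 and 7.09 in RXRKO. That peak had the highest -log10 q of its mark in the window in all 4 libraries. No H3K4me3 was called at the Rag1 start, the nearest peak lying 2720 bp away in WT and 2700 bp in RXRKO. An H3K27ac peak of 421 bp, at a fold of 3.91, lay across the start in WT, and the nearest in RXRKO was 15746 bp away. This WT peak ranked above 34.9% of the peaks in its list, so it was among the weaker ones. The Rag2 start was marked weakly. A region of 312 bp across it was called in both WT H3K4me1 libraries, at folds of 1.60 and 1.69, and in neither RXRKO library. The highest H3K4me3 peak of the window, at a fold of 12.3 in WT and 13.2 in RXRKO, lay inside the Rag2 gene but over the start of Iftap, a neighbour that runs the other way, and H3K27ac was highest there too. The H3K4me3 and H3K27ac lengths of this window thus include the Iftap promoter.

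Il7r (chr15:9506159-9529941) encodes the interleukin 7 receptor alpha chain. Its window held H3K4me1 alone in RXRKO. The 4 H3K4me1 libraries called the same 3 regions, at the start, 5.85 kb inside the gene and 37.4 kb downstream of the start. The peak at the start had folds of 3.78 and 3.94 in WT and 3.58 and 3.90 in RXRKO. The nearest H3K4me3 peak to the start was 66523 bp away in WT and 66516 bp in RXRKO. The only H3K27ac peak of the window was 212 bp long, at the start in WT, with a fold of 2.95, higher than 5.26% of the peaks in its list.

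Dntt (chr19:41029275-41059525) encodes terminal transferase, which adds bases without a template at receptor joints. No library had a peak within 1 kb of its annotated start. All 8 libraries called a region inside the gene that began 1464 to 1535 bp downstream (chr19:41030739-41032382), and all 8 called another at 23.7 kb (chr19:41051733-41054140). In the first, H3K27ac had folds of 7.63 in WT and 6.12 in RXRKO and was the highest peak of its mark in the window. At -6.92 kb from the start, all 4 H3K4me1 libraries had a peak, to which WT added H3K27ac (539 bp) and RXRKO added H3K4me3 (396 bp). Of the window's 11 H3K4me1 regions, 8 were called in all 4 libraries. The 2 called in WT alone lay 9.07 and 10.0 kb inside the gene, the stronger at folds of 3.61 and 4.04.

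**Figure D2:**
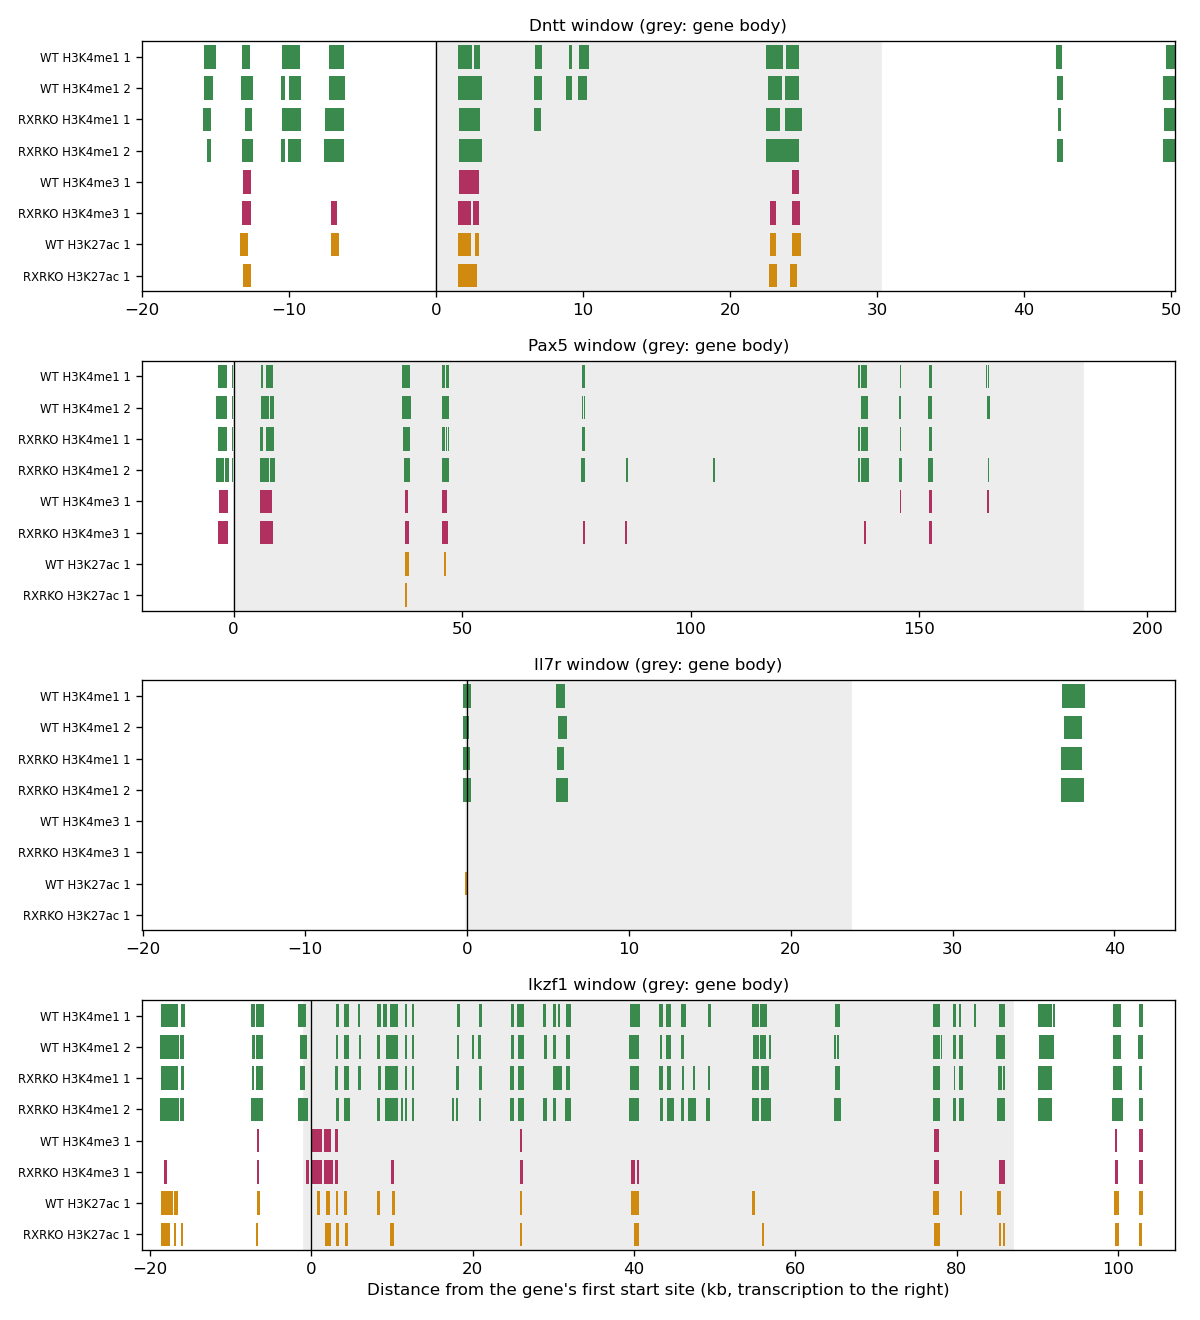
Peaks of the 8 libraries across the windows of Dntt, Pax5, Il7r and Ikzf1, by distance from the first start in kb, with the gene body in grey. Dntt has regions with all marks inside the gene and none over its start, Pax5 has broad H3K4me3 with little H3K27ac, Il7r has 3 regions of H3K4me1, and Ikzf1 has H3K4me1 along the gene.

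Ikzf1 (chr11:11684962-11772930), which encodes Ikaros, held more H3K4me1 regions than any other member's window. H3K4me1 peaks covered 18.7% and 18.3% of its window in the WT libraries and 17.8% and 20.6% in the RXRKO libraries, more than in 93.6% to 96.6% of all windows. Of its 39 H3K4me1 regions, 30 were called in all 4 libraries, none in WT alone and 1 in RXRKO alone, 42.9 kb from the second start. H3K4me3 spanned the first start, at folds of 3.76 in WT and 3.82 in RXRKO, and no library called H3K4me1 over that H3K4me3 region of 1436 bp. Within 1 kb of the first start, H3K27ac was called in WT, at a fold of 2.25. In RXRKO the nearest H3K27ac peak to that start was 1727 bp away. Over the second start, at chr11:11690177, H3K4me1 was called in all 4 libraries and H3K27ac in both genotypes. The strongest H3K4me3 and H3K27ac of the window lay beyond the gene's end, with H3K4me3 folds of 22.6 in WT and 19.7 in RXRKO. H3K4me3 covered 4602 bp in WT and 7644 bp in RXRKO. After centring this was a log2 difference of 0.51, higher than in 98.1% of windows, and below the 2-fold mark. With equal numbers of top peaks in both lists it was 0.27. Among peaks with an authors' fold of at least 4 it was 0.16. Of the window's 14 H3K4me3 regions, 6 were called in RXRKO alone, 42.9% against 22.2% of all H3K4me3 regions, and none in WT alone. Each of the 6 overlapped H3K4me1 of at least 1 library of both genotypes. Their RXRKO peaks had folds of 1.84 to 4.17 and ranked above 12.8% to 32.1% of their list, so they were among the weaker ones.

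Ebf1 (chr11:44618100-45008096) and Pax5 (chr4:44524748-44710694), the transcription factors that commit cells to the B lineage, had H3K4me3 in many places along long genes. All 17 H3K4me3 regions of the Ebf1 window were called in both genotypes, against 73.6% of all H3K4me3 regions. At its second start, H3K4me3 was called at folds of 3.80 in WT and 3.61 in RXRKO, and H3K4me1 in all 4 libraries. H3K27ac covered 33.1% of the H3K4me3 bases of the Ebf1 window in WT and 31.5% in RXRKO. Over the whole lists the corresponding shares were 62.6% and 58.1%. In the Pax5 window the share was 15.0% in WT and 4.28% in RXRKO, the lowest of the windows that held H3K4me3. In all 4 libraries a small H3K4me1 peak began 91 to 114 bp upstream of the Pax5 start, and H3K4me3 began 1319 bp away in WT and 1216 bp in RXRKO. The nearest H3K27ac to the Pax5 start was 37486 bp away in WT and 37489 bp in RXRKO, inside the gene. Another H3K27ac region, of 492 bp at 46.3 kb, was called in WT alone.

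Igll1 (chr16:16860671-16863985), Cd79a (chr7:24897497-24901858) and Cd79b (chr11:106311341-106314562) encode parts of the pre-B and B cell receptors, and only Cd79b was marked over its start by all 3 marks. The body of Igll1, a subunit of the surrogate light chain, held no peak in any library. A region centred at -1.28 kb from the start had H3K4me1 in all 4 libraries, at folds of 5.98 and 5.71 in WT and 5.82 and 5.26 in RXRKO. WT added H3K27ac there (628 bp) and RXRKO added H3K4me3 (267 bp, higher than 0.425% of its list). The WT H3K27ac peak reached the 1 kb limit by 6 bp. The strongest H3K4me3 and H3K27ac of the window were over the start of Top3b. At Cd79a, the nearest peak of any library to the start was 1709 bp away. The window's marks lay over the starts of Rps19, a ribosomal protein gene, and Arhgef1, and in regions away from these starts. A region centred at -19.1 kb from the Cd79a start was called in all 8 libraries. It held the highest H3K4me1 -log10 q of the window in WT replicate 1 and RXRKO replicate 1. At Cd79b, all 8 libraries had a peak across the start, with H3K4me3 folds of 10.2 in WT and 10.5 in RXRKO and H3K27ac folds of 4.11 and 4.30. The start of Cd79b was taken as its annotated end with more H3K4me3, so its H3K4me3 call was partly fixed by that choice.

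Covered length of H3K4me1 was compared between genotypes in each window. Values were log2 of the covered base pairs plus 1000, centred on each library's median over windows and tested with limma over 17759 windows. None of the windows, and so no member, passed a Benjamini-Hochberg adjusted p of 0.05 (0.0% called), while 1054 windows and no member had an unadjusted p under 0.05. In the Dntt window, peaks covered 9420 and 9688 bp in WT and 8701 and 8582 bp in RXRKO. Both RXRKO libraries were below both WT libraries, by -0.19 on the log2 scale (SE 0.093, limma adjusted p = 0.872), and the difference was -0.089 within replicate 1 and -0.29 within replicate 2. It was -0.31 without RXRKO replicate 1 and -0.071 without RXRKO replicate 2. Among peaks with an authors' fold of at least 4 the sign turned, to 0.079. The median over all tested windows was 0.0545 at that fold. Within the Rag1/Rag2 window the values were 5108 and 5501 bp in WT and 4902 and 5760 bp in RXRKO. After centring the RXRKO libraries were again below WT, by -0.06 (SE 0.093, limma adjusted p = 0.998). These 2 of 9 windows with RXRKO below WT compare with 17.5% of all windows, and 0 of 9 above with 15.8%.

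The other windows overlapped between genotypes. Cd79b had 7224 and 8644 bp in WT and 7367 and 6952 bp in RXRKO, a log2 difference of -0.19 (SE 0.109) that was -0.33 without RXRKO replicate 1 and -0.039 without RXRKO replicate 2. The Ebf1 values were 17985 and 19201 bp in WT and 14816 and 21411 bp in RXRKO, so both the lowest and the highest came from RXRKO. Pax5 likewise had 11253 and 12592 bp in WT and 10790 and 14869 bp in RXRKO. Cd79a had the highest difference, 0.12 (SE 0.098), from 5869 and 6835 bp in WT and 6186 and 8605 bp in RXRKO. Il7r, Ikzf1 and Igll1 differed by -0.01, -0.01 and -0.06. The median over the 9 windows was -0.06, against -0.0036 over all windows, and 7 lay below 0. By the run tags in the deposited peak names, H3K4me1 replicate 1 and the other libraries were sequenced in different runs. In 6 of the 9 windows the difference took opposite signs in the 2 replicates.

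**Figure D3:**
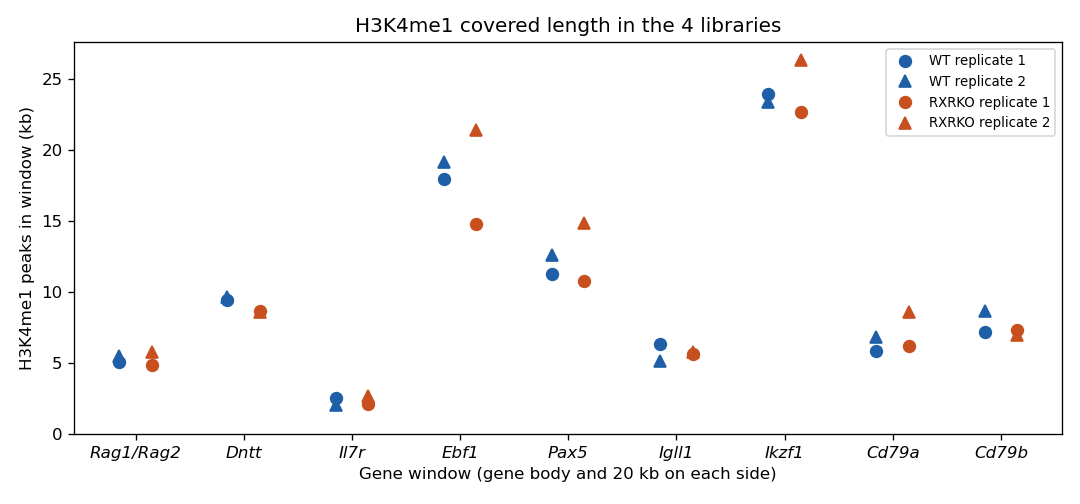
Base pairs, in kb, covered by H3K4me1 peaks in each of the 9 windows, with 1 point per library (blue WT, orange RXRKO, circles replicate 1, triangles replicate 2). Only in the Dntt window do the uncentred RXRKO points both lie below the WT points by more than the distance between replicates.

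**Figure D4:**
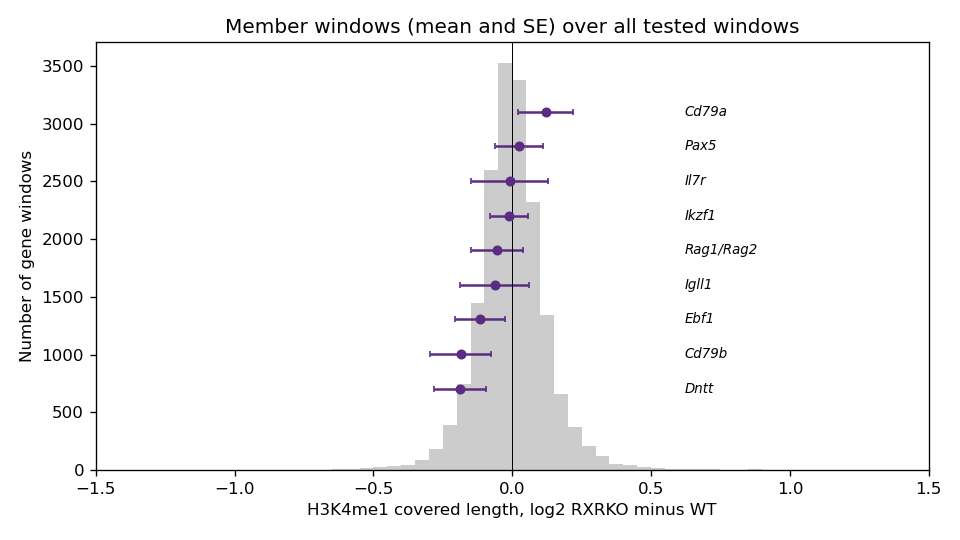
Histogram of the H3K4me1 log2 difference, RXRKO minus WT, over 17759 windows (grey), with the members' values and standard errors (purple points, bars of 1 SE). The members range from -0.19 to 0.12, within the bulk of all windows.

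H3K4me3 and H3K27ac had 1 library per genotype, so their differences have no test, and a centred difference of at least 1 on the log2 scale was counted. No member window reached it for H3K4me3, against 0.0901% of all windows higher and 0.024% lower in RXRKO. None reached it for H3K27ac, against 0.252% higher and 0.22% lower. With 100 bp added in place of 1000 bp, Il7r (-1.52) and Pax5 (-1.43), both under the minimum of 1000 bp for this mark, went past it. For H3K4me3, 8 of the 9 windows passed the minimum of 1000 bp, 6 of them above 0, with a median of 0.05 against -0.04 over all windows. With equal numbers of top peaks only Ikzf1 lay above 0. For H3K27ac, 7 windows passed, 5 of them below 0, with a median of -0.16 against 0.02. Among peaks with an authors' fold of at least 4, 4 of the 7 lay above 0 and the median was 0.022. Cd79b had the lowest value of these 7, with 3425 bp in WT and 1823 bp in RXRKO, a log2 difference of -0.56, and 2.10% of windows had a lower one. At that fold the Cd79b difference was 0.088. Pax5 had 1301 bp in WT and 376 bp in RXRKO, and its difference was -0.65. At that fold it was 0.16, the same as for Il7r, which then held no H3K27ac in either genotype, so this value is the centring alone. The centring added the same 0.16 to every window at that fold. That is more than the Cd79b value of 0.088 and the median of 0.022, so both were below 0 before centring. The Rag1/Rag2 window had 2164 and 1453 bp and the Ikzf1 window 9059 and 7376 bp.

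**Figure D5:**
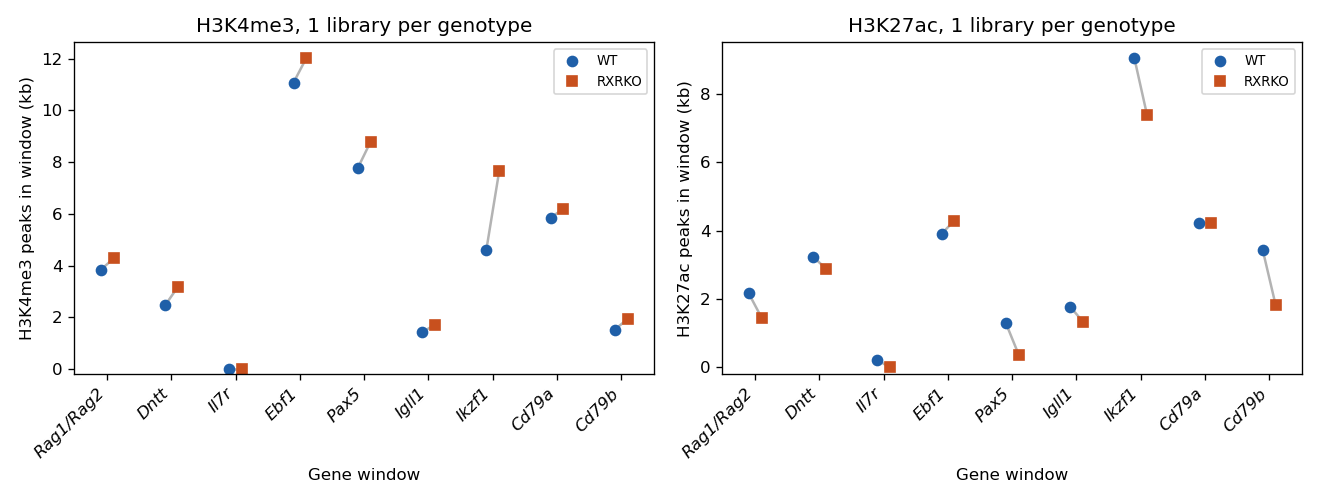
Base pairs, in kb, covered by H3K4me3 (left) and H3K27ac (right) peaks in each window, in the 1 WT library (blue circles) and the 1 RXRKO library (orange squares). H3K4me3 is higher in RXRKO in the 8 windows that hold it before centring, and H3K27ac is lower in RXRKO in all windows but Ebf1.

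Regions were then compared one by one, after merging the overlapping peaks of a mark. Of the 141 H3K4me1 regions in the windows, 94 were called in all 4 libraries, 66.7% against 61.8% of all H3K4me1 regions. There were 7 called in both WT libraries alone, 4.96% against 1.94% of all regions, and 2 in both RXRKO libraries alone, 1.42% against 2.17%. The 7 lay in the windows of Rag1/Rag2, Dntt and Ebf1, with 2 each, and Cd79b, with 1. At an authors' fold of at least 4 this order turned, with 1 region in WT alone, 1.64% against 5.10% of all regions. With 1 of the 4 libraries left out the count was 11 to 13, or 7.75% to 9.63% of the regions in the windows, against 3.59% to 7.16% of all regions. The Cd79b region, 4.33 kb downstream of the start and beyond the gene's end, was also called for H3K27ac in WT alone. For H3K27ac, 19 of 60 regions were called in WT alone, 31.7% against 23.9% of all regions, and 7 in RXRKO alone, 11.7% against 13.0%. With the lists cut to the same number of top peaks, 14 were in WT alone, 25.5% against 17.8% of all regions, and 8 in RXRKO alone, 14.5% against 17.6%. For H3K4me3, 3 of 63 regions were called in WT alone, 4.76% against 4.22% of all regions, and 16 in RXRKO alone, 25.4% against 22.2%.

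The pathway's other genes were compared in the same fit. Of 40 other early lymphoid and B lineage genes, 40 were tested and none passed in either direction by limma. An unadjusted limma p under 0.05 was found for 4 of the 40, against 1054 of all 17759 windows. The median of the 40 was -0.04, with 14 above 0 and 26 below. The smallest differences were at Blnk, the adaptor below the pre-B receptor (4749 and 4781 bp in WT, 4039 and 3101 bp in RXRKO, -0.40, limma adjusted p = 0.770), Vpreb3 (-0.28) and Ly6d (-0.24). The largest was at Foxo1, a transcription factor that acts with Ebf1 (15047 and 14906 bp in WT, 16477 and 19968 bp in RXRKO, 0.20, limma adjusted p = 0.683), and Tcf12, an E protein, was at 0.13. H3K4me3 was called at 27 of the 40 promoters in WT and 28 in RXRKO, where 66.6% of all genes had it in both genotypes. H3K27ac was called at 24 and 22, where 56.7% of all genes had it in both.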

How the data were processed

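CUT&RUN peak lists of H3K4me1, H3K4me3 and H3K27ac from sorted mouse HSCs were used, 1 list per library. The submitters' processing notes name cutadapt 1.7.1, Bowtie2 2.2.5, MACS3 and the build mm10. Whether a control library, duplicate removal or spike-in was used is not given in the sources used here. Each peak's score, fold (a ratio over local background), -log10 p and -log10 q are the authors' deposited values, used only within a list. A mark difference of amount cannot be read from called length, which also moves with depth. Positions are 1-based.

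Gene bodies and starts came from RefSeq tables of GRCm38.p6, with no exon positions. Starts were tabulated for 17274 genes. For 3118 others the gene end that had more H3K4me3 in 2 kb served as the start, and for 1239 both ends were used, which can raise the share of all genes with H3K4me3 at a start. Covered base pairs per window were tested with limma 3.58.1 in R 4.3.3 (eBayes with trend, mean covered length of at least 1000 bp), after the step was tested on simulated data. The H3K4me1 replicate number marks a sequencing run, by the run tags in the deposited peak names, that holds both genotypes. The replicate differences of WT and RXRKO correlated with r = 0.212 across 17759 windows, which are not independent replicates. The members and lists were chosen with earlier results of these data known. Named are all members, the 3 largest and 3 smallest differences of the list of 40 other genes and any that pass, peaks over a member's start, the highest -log10 q of a mark in a window, regions called in 1 genotype only, and neighbours whose start lies in a window. Of the genes that this rule selects, 1 is not reported here. The 2 Dntt regions and the Pax5, Ikzf1 and Il7r regions called in all libraries were named after their values were seen.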

Additional observations from a re-analysis of the deposited data

How the results depend on the processing

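No member passed limma's adjusted threshold under any of the alternatives run. With the replicate block no window was called, and Dntt had an adjusted p of 0.573 (0.335 to 1.00 over the alternatives). Over all windows, 65 were called without centring, 204 with no filter, and 0 to 112 with 1 library left out (45 without WT replicate 1, 112 without RXRKO replicate 1). The median of the members was 0.079 at an authors' fold of at least 4, against 0.0545 over all tested windows. At that fold the sign turned for Dntt (0.079), Rag1/Rag2 (0.14), Igll1 (0.29) and Il7r (0.39). With 50 kb flanks it turned for Rag1/Rag2 (0.021), Il7r (0.056) and Pax5 (-0.0084). Without centring it turned for Rag1/Rag2 (0.0034), Il7r (0.049) and Ikzf1 (0.047). Leaving out the centring moves every window by the same amount, and the median over all windows was then 0.0549. The turns at that setting are thus this shift alone. In the gene body alone the sign turned for Ikzf1 (0.045). With 1 library left out the range was -0.26 to 0.027 for Ebf1, -0.14 to 0.13 for Il7r, -0.079 to 0.13 for Pax5, -0.23 to 0.10 for Igll1, -0.064 to 0.042 for Ikzf1, -0.31 to -0.071 for Dntt, -0.33 to -0.039 for Cd79b and 0.021 to 0.22 for Cd79a. The cause of the other changes of sign and of these ranges was not tested. Igll1, Il7r and Cd79a could not be fitted in the gene body alone, since too few bases were covered. Within 2 kb of a start, H3K4me3 was called at 6 members in WT and 7 in RXRKO, and H3K27ac at 8 in WT and 5 in RXRKO. At a fold of at least 4, H3K4me1 was called at 3 promoters in each genotype, and H3K27ac at 2 in WT and 1 in RXRKO. The share of all genes at these promoter settings is not given here, so these counts have no background beside them. With equal numbers of top peaks, an alternative chosen after seeing the data, Rag1 and Igll1 kept their H3K27ac call in WT alone and Il7r had none. The H3K4me1 regions called in WT alone were 1 at a fold of at least 4 (1.64% against 5.10% of all regions) and 11 to 13 with 1 library left out (7.75% to 9.63% against 3.59% to 7.16%). Those in RXRKO alone were 0 at that fold (against 1.26% of all regions) and 1 where peaks had to cover 50% of the region (0.709% against 3.11%). With 1 library left out they were 3 to 13 (2.22% to 9.15% against 4.52% to 11.4%). H3K27ac regions in WT alone were 7 at that fold (31.8% against 25.0% of all regions), and in RXRKO alone 5 (22.7% against 14.6%). Read depth is unknown, so a peak not called is not a mark shown to be absent.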
